A study of Mus musculus with 17 samples.

Results

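The genes of small nucleolar RNAs (snoRNAs) and small Cajal body RNAs were followed in type 2 (AT2) cells of the lung epithelium, which make surfactant, after bleomycin injury. Members were all genes whose symbol starts with Snord, Snora or Scarna, looked up by Ensembl ID. They were 147 of the 43430 gene IDs of the count table, namely 97 Snord, 41 Snora and 9 Scarna genes. The cells were sorted by flow cytometry from C57BL/6J mice aged 2 months. The comparison rests on 9 total-RNA libraries made from 0.35 ng of RNA, namely 4 naive libraries and 5 made 14 days after bleomycin, a lung-injuring drug used to model fibrosis. Both groups carry the treatment label vehicle, and the titles of all 9 libraries say saline. A further 8 libraries, made from 3 ng of RNA with poly(A) selection, came from naive mice given vehicle (4) or ISRIB (4), an inhibitor of the integrated stress response, 24 h earlier, and were used here for detection only. The labels number the libraries of a group but do not say that each came from a separate animal, so p-values measure the spread between these libraries.

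SnoRNAs are short, stable RNAs that guide enzymes to ribosomal RNA in the nucleolus. The C/D class (Snord) is held by fibrillarin, NOP56, NOP58 and SNU13 and directs methylation of ribose, while the H/ACA class (Snora) is held by dyskerin, NHP2, NOP10 and GAR1 and directs the conversion of uridine to pseudouridine. Some members of both classes are needed for cutting the ribosomal RNA precursor instead. Cajal body RNAs (Scarna) have C/D, H/ACA or mixed domains and guide the same changes on the RNAs of the spliceosome. In mammals most of these RNAs are trimmed out of introns of host genes, many of which encode ribosomal proteins or nucleolar proteins.

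Sequences of C/D members with large falls or many counts are shown first, because the class is defined by its boxes. The capitals mark the core of the C box, TGATGA, where it lies in the first 20 bases, and the D box, CTGA, where it lies in the last 15 bases. The letters are those of the GENCODE M21 transcripts (GRCm38), 5′ to 3′, as DNA. Snord87 lies in an intron of the long non-coding host Snhg6 (chr1:9942463-9942549, minus strand) and Snord82 in an intron of Ncl, the gene of nucleolin (chr1:86356261-86356330, minus). Snord66 lies in Eif4g1, a translation initiation factor gene (chr16:20684239-20684313, plus), and Snord71 in an intron of Ap1g1, an adaptor protein gene of vesicle transport (chr8:109839295-109839379, plus). Snord104 has no annotated gene around it on its strand (chr11:106500993-106501062, plus).
Snord104: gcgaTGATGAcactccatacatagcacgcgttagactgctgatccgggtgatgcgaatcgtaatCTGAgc
Snord87: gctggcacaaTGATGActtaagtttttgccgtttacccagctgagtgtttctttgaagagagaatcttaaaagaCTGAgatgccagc
Snord82: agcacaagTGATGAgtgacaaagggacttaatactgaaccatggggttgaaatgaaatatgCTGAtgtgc
Snord66: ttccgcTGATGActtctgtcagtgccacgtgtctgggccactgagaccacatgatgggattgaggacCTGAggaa
Snord71: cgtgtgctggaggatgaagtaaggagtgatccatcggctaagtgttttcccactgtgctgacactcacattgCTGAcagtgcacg

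H/ACA members that fell are shown with ACA in capitals where it lies in the last 6 bases. Snora7a lies in the ribosomal protein gene Rpl32 (chr6:115807975-115808114, minus), and exons of the annotated transcripts on the same strand cover all its bases. Snora30 lies in an intron of the gene model Gm42715 (chr7:127527874-127528003, plus).
Snora7a: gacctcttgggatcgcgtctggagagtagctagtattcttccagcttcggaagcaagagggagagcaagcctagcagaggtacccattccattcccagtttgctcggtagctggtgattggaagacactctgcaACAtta
Snora30: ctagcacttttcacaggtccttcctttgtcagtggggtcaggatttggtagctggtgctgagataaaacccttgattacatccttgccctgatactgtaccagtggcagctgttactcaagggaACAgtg

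The class names Snord and Snora refer to the boxes, so the counts below describe the members and are no independent check of the split. TGATGA in the first 20 bases together with CTGA in the last 15 was found in 67 of 97 Snord genes (69.1%) and in 0 of 41 Snora genes. ACA in the last 6 bases was found in 38 of 41 Snora genes (92.7%) and in 5 of 97 Snord genes (5.15%). Of the 9 Scarna genes, 4 held the pair of C/D boxes and 4 held ACA. The background was 9117 other GENCODE transcripts of 50 to 300 bases, with all snoRNA and small Cajal body RNA models left out. Of these, 0.0877% held the pair and 7.09% held ACA. Only the strand of the RNA was searched. Snord71 lacks the exact C box letters in this window, which says only that these letters are not there. Snord genes were 64 to 238 bases long, Snora genes 121 to 205 and Scarna genes 70 to 414.

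Depth ranged from 3295257 to 6333166 counts per total-RNA library, and naive library 1 was the shallowest. The share of ribosomal-RNA-like models was 20.2% to 29.2% in naive libraries, highest in naive library 1, and 15.7% to 22.9% after bleomycin. All 9 AT2 markers checked were detected, with 1 called lower and 2 higher. The 12 macrophage and monocyte markers, of which Marco and C1qa were at 0, summed to 6.2 to 10.4 CPM in naive and 4.75 to 10.8 CPM in bleomycin libraries, and the 2 tested did not pass. The lymphocyte markers summed to at most 1.68 CPM (counts scaled to the same library total). The fibroblast markers summed to 3.87 to 10.1 CPM in naive and 17.5 to 115 CPM in bleomycin libraries, with 3 of 3 tested called higher. Of the markers of AT1 cells, the flat cells of the alveolus, 6 of 7 were called higher, and so were 3 of 5 tested airway and 1 of 4 tested endothelial markers. Of 10 tested proliferation genes 7 were called higher. The part of these shifts in the values below was not tested. In bulk libraries, fewer cells with an RNA and less RNA per cell cannot be told apart.

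Members were detected mostly in total RNA. At least 1 count was found for 71 to 78 members in each naive and for 55 to 68 in each bleomycin library, and 86 of 147 had a count in at least 1 of these 9. The 9 libraries held 16701 counts of members in all. The 8 poly(A) libraries, which were deeper, held 627 counts of members, with 18 to 31 members detected in each. Over all 8 of them 58 members were detected, of which 57 were also detected in total RNA.

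The 61 members with 0 counts in all 9 total-RNA libraries were largely those whose bases lie inside exons of another gene. Annotated exons on the same strand covered 55 members completely, 54 of them by exons of longer RNAs and 1 by another small RNA model, and 41 of the 55 (74.5%) had 0 counts. Of the 92 members not completely covered, 20 (21.7%) had 0 counts. The gene models used by the authors for counting may differ from GENCODE M21, and the part of read assignment in these zeros was not tested. Among the 20 were 16 of the 17 Snord116 copies, C/D RNAs of the imprinted region linked in humans to Prader-Willi syndrome, which lie in introns of Snhg14. Snord116l14 and Snord116l9, which have no identical copy, also had 0 counts, Snord116l12 had 1, and Snhg14 was not among the genes tested. The part of identical copies or of low expression in these zeros was not tested. Of the 17 copies 14 have letter-for-letter the same sequence, shown here because a short read from one copy cannot be placed on it alone.
Snord116l4 (chr7:59889593-59889686, minus): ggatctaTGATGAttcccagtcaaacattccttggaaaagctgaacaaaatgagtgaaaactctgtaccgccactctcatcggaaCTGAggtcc
Snord14e, Snord22 and Snora74a also had 0 counts in all 9 libraries, so nothing can be said of their response.

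Summed over each class, all 4 naive libraries lay above all 5 bleomycin libraries. Snord genes summed to 908, 292, 503 and 452 CPM of the library total in naive libraries 1 to 4, and 133, 118, 109, 155 and 113 in bleomycin libraries 1 to 5. The means were 539 ± 262 (SD, n = 4) and 126 ± 18.7 (n = 5), a ratio of 4.29. Naive library 1 was the highest and naive library 2 the lowest of its group, while the bleomycin libraries lay close together. Snora genes summed to 266, 93.5, 168 and 108 CPM in naive and 25.5, 76, 39.6, 54.9 and 52.3 in bleomycin libraries, a ratio of means of 3.2. Scarna genes summed to 120, 81.2, 111 and 84.1 CPM in naive and 44.2, 59.3, 40.3, 47 and 42.8 in bleomycin libraries, a ratio of 2.13. The groups did not overlap in any class. Without naive library 1 the ratios were 3.31, 2.49 and 1.97 for Snord, Snora and Scarna.

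**Figure D1:**
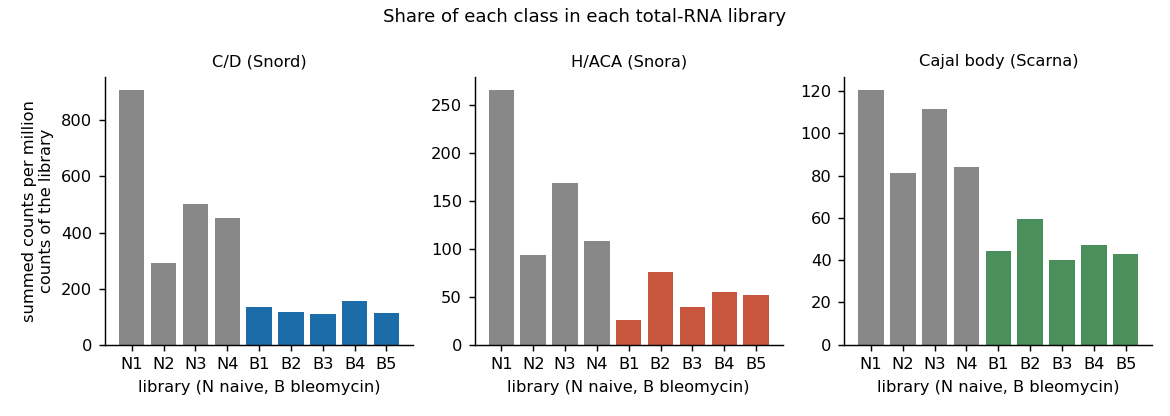
Bars give the summed CPM of each class, relative to the library total (linear axis from 0) for naive libraries N1 to N4 and bleomycin libraries B1 to B5. Every naive bar stands above every bleomycin bar in its panel, and N1 is the highest, at 908 for Snord genes.

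Gene by gene, 37 members passed the filter on low counts and could be tested against the spread between libraries with edgeR. All 37 had a lower fitted level after bleomycin, and 26 passed a Benjamini-Hochberg adjusted p of 0.05, each of them lower. Among all 11223 genes tested, 9.31% were called lower and 11.2% higher, 20.5% in all. At an unadjusted p under 0.05, 31 of the 37 passed, against 33.3% of all genes tested. The calls were 17 of 20 Snord, 7 of 12 Snora and 2 of 5 Scarna genes. The median log2 fold change of the tested members was -2.01 for Snord, -1.66 for Snora and -0.97 for Scarna genes, against 0.0026 for all genes tested. The difference between classes was not tested. Groups did not overlap for 19 of the 37, all lower, against 9.35% of all genes tested that were lower and 10.4% that were higher without overlap.

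The filter itself favours RNAs that are high in 1 group. Of the 37 members, 18 reached the filter level of 2.57 CPM in at least 4 naive libraries but not in 4 bleomycin libraries. Passing in this way favours members that are higher in the naive group, so their direction is partly set by the filter. A further 14 members reached it in at least 4 bleomycin libraries, and 11 of these were called lower. All of the 14 but Snora43 also reached it in all 4 naive libraries. Snora43 reached it in 3 naive and 5 bleomycin libraries and was not called. The remaining 5 members reached it in 4 libraries of neither group, and 1 of them was called lower. With a filter on the total over all 9 libraries, which ignores the groups, 25 of 35 tested members were called lower. The 110 members not tested had at most 74 counts over the 9 libraries. Of these, 49 had any count, and the mean CPM was lower after bleomycin for 42 of them and higher for 7.

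Naive library 1 held the highest value of all 9 libraries for 34 of the 37 tested members, and the number of calls rested partly on it. Without it 14 of 38 tested members were called lower, namely 12 Snord, 1 Snora and 1 Scarna gene, and the median log2 fold change of the tested members moved from -1.75 to -1.39. Without naive library 3 the calls numbered 19, of which 4 were Snora genes.

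Among C/D members, Snord71 had the largest called change. Its level was 37.6, 6.62, 14.1 and 15.5 CPM in naive libraries 1 to 4 and 3.44, 1.44, 2.17, 3.40 and 0.79 CPM in bleomycin libraries 1 to 5. Naive library 1 was the highest and the groups did not overlap. Its log2 fold change was -3.09 (SE 0.47, adjusted p 1.54e-04 by edgeR). Snord66 had 54, 8.33, 21.6 and 23.5 CPM in naive and 2.91, 4.51, 3.10, 4.02 and 3.48 CPM in bleomycin libraries, again without overlap and with bleomycin values close together. Its change was -2.87 (SE 0.39, adjusted p 5.02e-05).

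The 4 C/D members with the highest mean CPM, all methylation guides, fell too. Snord55 had 186, 52.8, 85.6 and 82.3 CPM in naive and 27.2, 6.5, 11, 26 and 8.39 CPM in bleomycin libraries. Every bleomycin value was below the lowest naive value, and the change was -2.75 (SE 0.38, adjusted p 5.01e-05 by edgeR). Snord104 had 211, 34, 80.5 and 79.6 CPM in naive and 24.9, 12.1, 7.90, 28.8 and 7.44 CPM in bleomycin libraries. The groups came close, since naive library 2 was only slightly above bleomycin library 4, and the change was -2.71 (SE 0.43, adjusted p 2.25e-04). Snord87 had 99, 36.5, 59.1 and 53.1 CPM in naive and 9.79, 12.1, 6.5, 16.4 and 9.34 CPM in bleomycin libraries. These groups lay far apart, with a change of -2.54 (SE 0.27, adjusted p 3.37e-06). Snord82 had 72.8, 29.5, 47.7 and 42.3 CPM against 13.5, 19.5, 14.6, 8.97 and 12.4 CPM. Its groups did not overlap either, and its change was -1.78 (SE 0.24, adjusted p 4.39e-05).

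**Figure D2:**
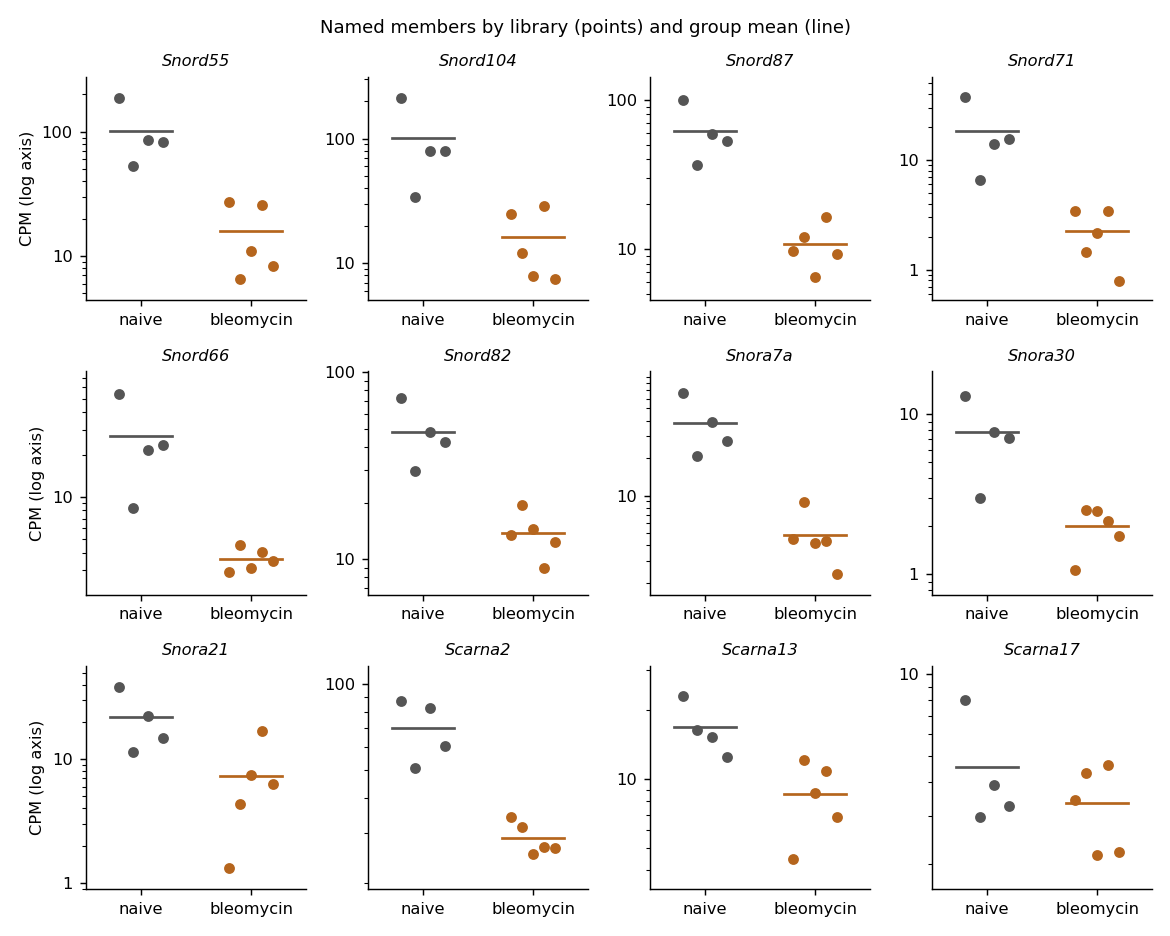
Each point is a library's CPM on a log axis and each line a group mean, for 4 naive and 5 bleomycin libraries. The groups are apart for Snord55, Snord104, Snord87, Snord71, Snord66, Snord82, Snora7a, Snora30, Scarna2 and Scarna13, and overlap for Snora21 and Scarna17.

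Snord17, Snord118 and Snord13 are C/D members over 100 bases long. Snord17, a large C/D guide in an intron of Snx5 (chr2:144265979-144266216), had 75.8, 31, 53.1 and 32.2 CPM in naive and 6.61, 7.58, 20.4, 7.73 and 23.3 CPM in bleomycin libraries. Bleomycin libraries 3 and 5 were higher than the other 3 but below every naive library, and the change was -1.81 (SE 0.34, adjusted p 0.00105 by edgeR). Snord118, the U8 RNA needed for maturation of the large-subunit ribosomal RNAs (chr11:69073427-69073561), had 4.70, 2.56, 6.01 and 3.58 CPM in naive and 1.32, 5.77, 1.86, 1.24 and 0.48 CPM in bleomycin libraries. Bleomycin library 2 lay among the naive values, and the change of -0.93 (SE 0.59, adjusted p 0.283) did not pass. Snord13, the U13 RNA (chr8:31149864-31149967), had 11.1, 3.42, 7.21 and 3.28 CPM against 0.79, 1.44, 2.32, 8.04 and 0.95 CPM. Here bleomycin library 4 overlapped the naive group. Its change of -1.26 (SE 0.61, adjusted p 0.155) did not pass, and without that library it was -2.10 (adjusted p 0.00856). The library is singled out for its high value, so the second p-value cannot stand as a test of the fall.

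A further 10 Snord genes were called lower, with log2 fold changes from -2.46 to -1.48, and in 6 of these every bleomycin library was below every naive one. Snord15a was the remaining tested Snord gene and is named after its values were seen. It lies in an intron of the ribosomal protein gene Rps3 (chr7:99482785-99482932, minus) and carries both boxes, as did 14 of the 20 tested Snord genes.
Snord15a: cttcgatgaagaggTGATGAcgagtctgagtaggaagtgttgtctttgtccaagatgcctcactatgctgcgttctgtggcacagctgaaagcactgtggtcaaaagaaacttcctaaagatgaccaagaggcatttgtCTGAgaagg
Its level was 18.8, 10.5, 16.2 and 11.9 CPM in naive and 7.41, 10.5, 7.74, 10.5 and 9.98 CPM in bleomycin libraries. Its change of -0.63 (SE 0.25, adjusted p 0.0819 by edgeR) did not pass.

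Among H/ACA members, Snora7a had the largest change. Its level was 67.1, 20.7, 39 and 27.4 CPM in naive and 4.50, 8.84, 4.18, 4.33 and 2.38 CPM in bleomycin libraries. The groups did not overlap, and the log2 fold change was -2.97 (SE 0.35, adjusted p 1.09e-05 by edgeR). This was the 1 Snora gene called without naive library 1. Snora68 had 12.7, 4.49, 9.91 and 3.87 CPM in naive and 0, 4.15, 1.08, 1.24 and 0.95 CPM in bleomycin libraries. Bleomycin library 2 reached above the lowest naive value, and the change was -2.30 (SE 0.63, adjusted p 0.0131). As for Snora7a, exons of annotated transcripts on the same strand cover all bases of Snora68.

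Snora30 had 13.1, 2.99, 7.81 and 7.15 CPM in naive and 1.06, 2.53, 2.48, 2.17 and 1.74 CPM in bleomycin libraries, and the change was -1.91 (SE 0.46, adjusted p 0.00623 by edgeR). Snora16a, in exons of the non-coding host Snhg12 (chr4:132309465-132309600), had 15.8, 3.2, 6.91 and 3.87 CPM in naive and 2.12, 2.53, 1.55, 1.24 and 3.17 CPM in bleomycin libraries, and the change was -1.75 (SE 0.50, adjusted p 0.0177). Both had groups without overlap, though naive library 2 lay close to the highest bleomycin values. Snora21, in an intron of the ribosomal protein gene Rpl23 (chr11:97781639-97781775), had 38.6, 11.3, 22.2 and 14.9 CPM in naive and 1.32, 4.33, 7.43, 17 and 6.33 CPM in bleomycin libraries. Its groups overlapped through bleomycin library 4, and its change was -1.60 (SE 0.45, adjusted p 0.0162). The calls of Snora68, Snora30, Snora16a and Snora21 were lost without naive library 1, with adjusted p of 0.0722, 0.0528, 0.184 and 0.109. The call of Snora68 was also lost without naive library 3 (adjusted p 0.0511), that of Snora21 with DESeq2 (0.0708) and that of Snora16a with limma-voom (0.075).

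Snora73a and Snora73b, copies of the U17 RNA, which takes part in early cutting of the ribosomal RNA precursor, lie beside each other in Rcc1 (chr4:132352775-132352979 and chr4:132352322-132352526). They are close copies, so reads may be shared or lost between them. Snora73b had 36.9, 13, 22.2 and 12.2 CPM in naive and 2.12, 21.7, 4.65, 7.73 and 6.49 CPM in bleomycin libraries. Bleomycin library 2 stood at the level of the naive libraries for both copies. The changes of -1.27 (SE 0.46, adjusted p 0.0566 by edgeR) for Snora73b and -1.33 (SE 0.48, adjusted p 0.0572) for Snora73a did not pass. Without bleomycin library 2 they were -1.99 (adjusted p 0.00123) and -1.89 (adjusted p 0.00747). That library is singled out here for its high values, so these p-values cannot stand as a test of the fall.

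The other 2 Snora genes called, Snora24 and Snora23, changed by -1.73 and -1.41 and are named after their values were seen. The remaining 3 Snora genes tested had changes from -1.72 to -0.31 and did not pass. The smallest was that of the Snora43 model with counts (ENSMUSG00000097052, chr2:26637847-26637985), named after its values were seen. Its level was 9.06, 2.35, 8.41 and 6.26 CPM in naive and 7.41, 3.43, 2.79, 8.66 and 4.28 CPM in bleomycin libraries, and the groups overlapped throughout. It also had 140 counts in the poly(A) libraries, the most of any member there, and a second model of the same symbol, which lies inside it and covers 91.4% of it, had 0 counts. No exon of a longer gene on its strand overlaps it.

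**Figure D3:**
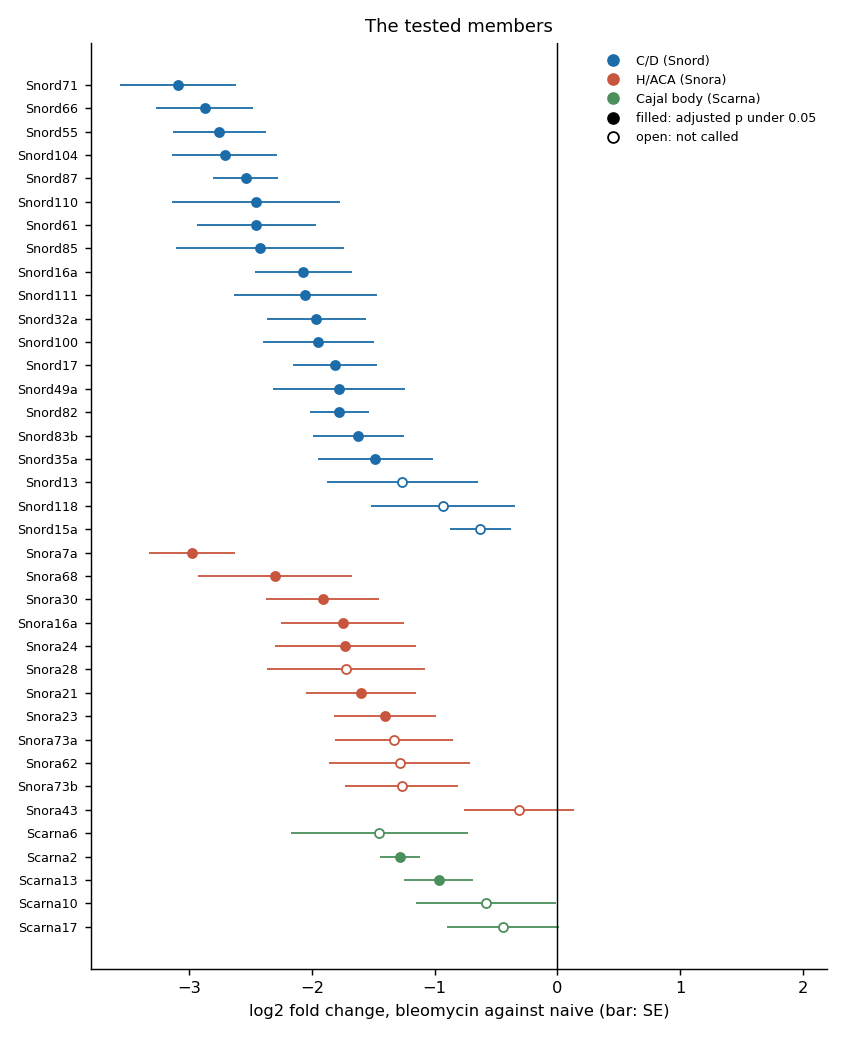
Points are log2 fold changes of the 37 tested members, bleomycin against naive, with bars of 1 SE, and filled points passed an adjusted p of 0.05. All points lie below 0, from -3.09 for Snord71 to -0.31 for Snora43.

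Of the Cajal body RNAs, 2 of 5 tested were called lower. Scarna2, a guide for U2 spliceosomal RNA with no annotated gene around it on its strand (chr3:108554338-108554751), had 87.5, 50.9, 82.6 and 60.5 CPM in naive and 34.1, 31.4, 25.4, 26.9 and 26.6 CPM in bleomycin libraries. The bleomycin libraries were close together and all below the naive ones, and the log2 fold change was -1.28 (SE 0.17, adjusted p 3.02e-05 by edgeR). Scarna13, in the non-coding host Snhg10 (chr12:105031075-105031349), had 23.1, 16.5, 15.3 and 12.5 CPM in naive and 4.50, 12.1, 8.67, 10.8 and 6.81 CPM in bleomycin libraries. The highest bleomycin value was just under the lowest naive value, and the change was -0.97 (SE 0.28, adjusted p 0.0195). Without naive library 1 it no longer passed (-0.79, adjusted p 0.0996).

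The other 3 tested Scarna genes did not pass. Scarna6 had 4.03, 4.49, 3.30 and 2.09 CPM in naive and 0, 3.79, 0.93, 0 and 1.11 CPM in bleomycin libraries, and the change was -1.45 (SE 0.72, adjusted p 0.163 by edgeR). Scarna10, an RNA with both C/D and H/ACA domains inside Ncapd2 (chr6:125186359-125186683), had 4.36, 1.92, 5.10 and 1.49 CPM in naive and 2.12, 3.25, 0.93, 3.71 and 0.95 CPM in bleomycin libraries, and the change was -0.58 (SE 0.57, adjusted p 0.512). Scarna17 had 8.05, 2.99, 3.90 and 3.28 CPM against 3.44, 4.33, 2.17, 4.64 and 2.22 CPM, and its change was -0.44 (SE 0.46, adjusted p 0.539). In all 3 the groups overlapped, and at 1 to 8 CPM in most libraries the SE was large against the change. Exons of other annotated genes on the same strand cover 87.1% of Scarna10, and the part of their reads in its counts was not tested.

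Most host genes did not pass the test, as was so for most genes tested. Of the 37 tested members 31 lie within a gene on the same strand, and for 27 of them that host was itself tested. The median log2 fold change of these 25 hosts, 10 of them for ribosomal proteins, was -0.03. Of the 25, 2 were called lower, 4 were called higher and 19 did not pass, against 20.5% of all genes tested called in either direction. The 27 members in them had a median of -1.78, and each of the 27 had a more negative change than its host. Some of the 27 passed the filter on low counts only through the naive group, which favours a fall. The contrast with the hosts is therefore partly set by the filter. Of the 20 members called lower in a tested host, 16 had a host that did not pass, 1 a host called lower and 3 a host called higher. The difference between member and host was not itself tested.

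Rpl32, the host of Snora7a, had 92.1 ± 6.44 CPM (SD, n = 4) in naive and 91.6 ± 18.7 CPM (n = 5) in bleomycin libraries, and its log2 fold change was -0.01 (SE 0.14, adjusted p 0.973 by edgeR). Ap1g1, the host of Snord71, changed by 0.16 (adjusted p 0.443). Eif4g1, the host of Snord66, rose by 0.55 (SE 0.11, adjusted p 0.00129), from 333 ± 10.5 to 487 ± 38.2 CPM, and Ncl, the host of Snord82, rose by 0.41 (adjusted p 0.0454). Ncapd2, a condensin gene that holds Scarna10, rose by 1.47 (adjusted p 4.73e-04). The host called lower together with its member was Rbmx, an RNA-binding protein gene, at -0.63 (adjusted p 0.00341), while its intronic Snord61, named after its values were seen, changed by -2.45 (adjusted p 0.00139). The tested members with no host had changes from -2.71 (Snord104) to -0.31 (Snora43).

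**Figure D4:**
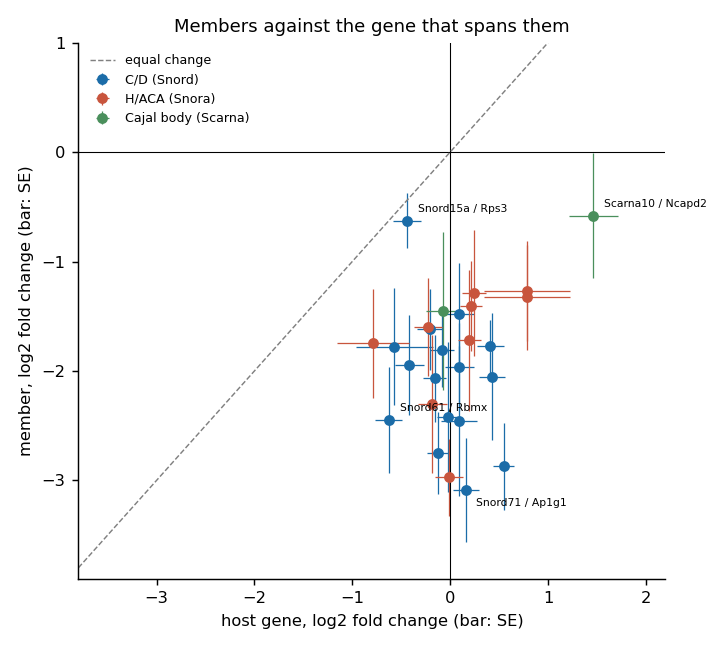
Each point is a tested member in a tested host, with the host's log2 fold change on the x axis, the member's on the y axis and bars of 1 SE. Hosts scatter around 0 (median -0.03) and all 27 members lie below the dashed line of equal change. Some of the 27 passed the filter on low counts only through the naive group, which favours a fall.

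Of 47 tested genes of the protein machinery, 4 rose and 2 fell, against 20.5% of all genes called in either direction. Of the 4 core C/D proteins, Nop58 rose from 29.7 ± 4.82 to 44.9 ± 10.6 CPM (log2 fold change 0.58, SE 0.18, adjusted p 0.0278 by edgeR) and the other 3 did not pass. Of the 4 core H/ACA proteins, Nhp2 rose by 1.10 (SE 0.32, adjusted p 0.0209) from 4.69 ± 0.59 to 10 ± 3.44 CPM. The list medians were 0.31 and 0.25, against 0.0026 for all genes tested. A list of 12 genes held assembly factors and other nucleolar factors. Of the latter, Tcof1 rose by 0.47 (adjusted p 0.0486) and Nop53 fell by 0.53 on the log2 scale (adjusted p 0.0171). No other gene of that list passed. None of the 5 tested Cajal body protein genes and none of the 10 RNA polymerase I genes passed. Among 12 genes of precursor processing, Ncl rose and Heatr1 fell by 0.56 on the log2 scale (adjusted p 0.00532).

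Many other short RNAs were lower in the same libraries, but not all. Of 84 other tested gene models of up to 300 bases, 51 were called lower and 1 higher, with a median log2 fold change of -1.52. Of 11044 other models over 300 bases, 8.67% were called lower and the median was 0.0095. The snoRNA gene models that fall outside the symbol rule had 18 of 25 called lower (median -2.26) and summed to 269 to 683 CPM in naive and 123 to 172 in bleomycin libraries. Spliceosomal-type RNA models had 10 of 13 called lower, with a median of -1.54. Of 9 tested short structured RNAs on a list, 5 were called lower. The largest falls were those of Rny3 and Rny1, the RNAs of Ro particles, at -2.18 and -1.81 (adjusted p 2.87e-05 and 3.99e-05 by edgeR), and Rnu12, a minor spliceosome RNA, at -2.13 (adjusted p 4.93e-04). Rmrp and Rpph1, the RNAs of the RNase MRP and RNase P enzymes, Rn7sk, a regulator of transcription, and Rnu3a, a U3 RNA, did not pass, at -0.36, -0.48, -0.50 and -0.39. Of 13 tested miRNA gene models, 2 were called lower and 1 higher. The higher one, Gm23935, rose by 0.78 (adjusted p 0.00712 by edgeR) and summed to 26822 to 41335 CPM of the library total in naive and 51762 to 85431 in bleomycin libraries. It made up most of the summed counts of short models outside ribosomal-like and mitochondrial tRNA genes, which were 33316 to 46432 CPM in naive and 55075 to 91585 CPM in bleomycin libraries. Without it that sum was 4808 to 7693 CPM in naive and 3313 to 6154 CPM in bleomycin libraries, and the groups overlapped. All 8 tested mitochondrial tRNA genes, which do not come from the nucleus, were called lower with a median of -4.09. All mitochondrial tRNA genes summed to 72.4 to 261 CPM in naive and 10.7 to 19.4 in bleomycin libraries, and naive library 1 was again the highest. The part of RNA size, RNA quality or library preparation in the change of the members was not tested.

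Among the tested members, the shorter ones had the more negative changes. Across the 37 tested members the log2 fold change correlated with length at Spearman's rho 0.61 and Pearson's r 0.48, given as a description because these points share the same libraries and length also follows class. The 17 members under 100 bases had a median of -2.07 with 16 called lower, and the 20 longer ones had a median of -1.37 with 10 called lower. Both sets hold members that passed the filter on low counts only through the naive group, which favours a fall. The part of the filter in the contrast by length was not tested. GC content gave a rho of 0.06. Scarna17 was the 1 member under 100 bases that did not pass.

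**Figure D5:**
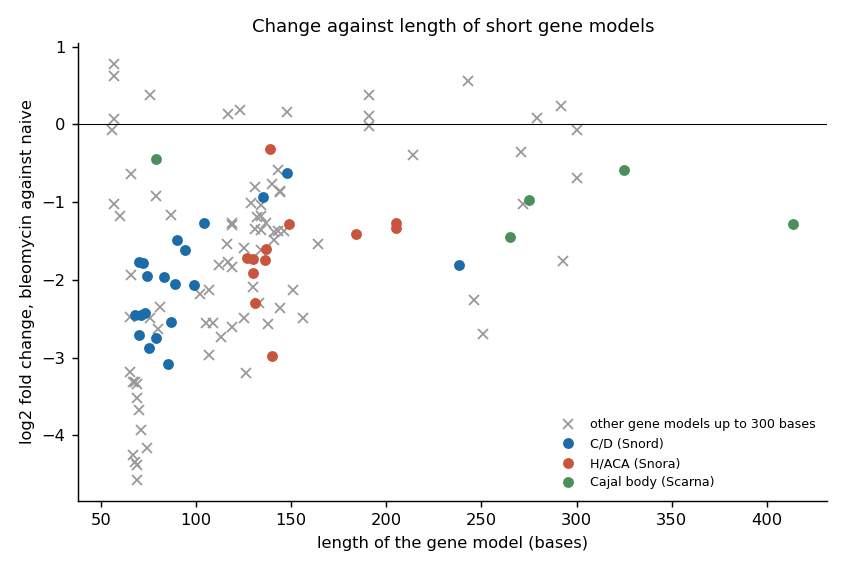
The log2 fold change of each tested gene model of up to 300 bases (crosses) and of each tested member (points, by class) is plotted against the length of the model in bases. The 17 members under 100 bases have a median of -2.07 and the 20 longer ones of -1.37. Both sets hold members that passed the filter only through the naive group. The 8 tested mitochondrial tRNA genes are crosses from -4.57 to -3.31.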

How the data were processed

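Gene expression was measured by RNA sequencing of sorted AT2 cells, in 9 total-RNA and 8 poly(A) libraries. Per the file headers, the authors deposited 1 column of whole-number counts per library, with genes in rows. The submitters' processing notes name bcl2fastq 2.19.1, FastQC, Trimmomatic 0.36, STAR 2.6.0, HTSeq 0.11.2 and the build mm10. The gene annotation, counting mode and strand setting were not given in the sources used here. With HTSeq, a read that overlaps more than 1 gene may be left uncounted, depending on the mode, and reads of near-identical copies may be lost.

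Symbols were matched by gene ID (42462 of 43430), and positions, hosts and sequences were taken from GENCODE M21 (GRCm38). A host is a longer gene on the same strand whose span holds the member, protein-coding genes first, then the shortest. Bleomycin was compared with naive in edgeR 4.0.16 (R 4.3.3) on all genes passing filterByExpr (minimum count 10, minimum total 15), with TMM factors, group as the only term and the two-sided quasi-likelihood F test, adjusted by Benjamini-Hochberg over 11223 genes. Calls used an adjusted p below 0.05. CPM, counts per 1e6 of library size, use effective sizes after the filter, while class sums use raw totals. SEs were derived from the unshrunk fold change divided by the root of F. The procedure was tested on simulated data. Depths of 3295257 to 6333166 counts limit low members.

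Named members were, in the Snord and Snora classes, the 4 with the highest mean CPM and the 4 largest called rises and falls, every tested Scarna gene, and a panel of 11. Members and lists were chosen with earlier results of these data known. Pairing by replicate number, other scalings, filters and tools, and leaving out each library were tried, with DESeq2 1.42.0 and limma 3.58.1 among them. Replicate libraries of a group differed by 4.20 to 46.2 times counting error (chi-squared per degree of freedom), so each was counted as 1 sample. Some host genes and sequences are not reported here.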

Additional observations from a re-analysis of the deposited data

Results flagged for a closer look

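Of 48 checks of a named member or class sum in a group of 4 or 5 libraries, 3 found a library far from the others, measured as its gap to the nearest value over the range of the group, and chance alone flags about 1 in 20. For Snora73b, bleomycin library 2 had 21.7 CPM and the next highest bleomycin library 7.73 CPM. For Snord118, the same library had 5.77 CPM and the next 1.86 CPM. For Snord13, bleomycin library 4 had 8.04 CPM and the next 2.32 CPM.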

How the results depend on the processing

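All class medians stayed negative under every alternative run, and no named member changed sign. No member was called higher under any of them. Without a filter on low counts the Snora calls rose to 12 of 25 tested. In that run the adjusted p of Snord104 went from 2.25e-04 to 1.89e-58 by edgeR. Its log2 fold change was nearly the same (-2.71 and -2.69). The p-values of that run thus do not measure the spread between libraries, and its extra calls are not read as results. Leaving out single libraries gave 14 to 27 calls over all members, 12 to 18 for Snord, 1 to 8 for Snora and 1 to 2 for Scarna genes, lowest without naive library 1. With the replicate number as a block the Scarna calls went from 2 to 1 (Scarna13, adjusted p 0.0584), and the calls over all members from 26 to 24. No pairing by number was seen, though these values cannot exclude one. Same-numbered naive and bleomycin libraries deviated together by correlations of -0.04 to 0.05 over 11223 genes. Libraries with different numbers gave -0.162 to 0.107. At a minimum of 10 counts, 17 members were detected in the total-RNA library with fewest, and 1 to 3 in the poly(A) libraries. Among the named members' single results, with the run without a filter included, 9 calls were lost and 9 gained, and 332 kept their side of the threshold. The group-blind filter and the leave-one-out class ratios were added after seeing the data. Depth limits what can be said of the 110 members not tested.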
